A study of Mus musculus with 55 samples.

Results

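Hepatic stellate cells (HSC), the vitamin A-storing pericytes of the liver sinusoid, were compared between normal mouse liver and liver after partial hepatectomy (PH, surgical removal of part of the liver). The members were chosen by their sample titles: 2 libraries titled Norm HSC and 3 titled PH HSC, 5 of the 55 libraries of a series in which 10 cell populations were sorted from normal and PH liver. All mice were of strain C57B/L6, as the labels write it, and both groups were sorted by flow cytometry from liver into TRIzol and sequenced as standard Illumina libraries of total RNA. The normal group had no surgery named in its labels, and neither group carries a time after surgery, an age, a sex, a batch or the markers used for the sort in the labels used here. The labels do not say whether the libraries of a group came from separate animals, so the p-values measure the spread between these libraries, which may be technical. Each of 24478 gene symbols was represented by 1 transcript, and 11729 were tested in HSC. The unit was FPKM, a transcript level scaled to transcript length and library size.

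Stellate cells sit between hepatocytes and sinusoidal endothelium, where they store retinyl esters, keep the sinusoidal matrix and secrete growth factors for their neighbours. Hepatocyte growth factor, made by these cells, is a principal mitogen for hepatocytes through the receptor Met. In chronic injury stellate cells turn into collagen-producing myofibroblasts, and regeneration after PH is a setting in which the liver regrows without a scar.

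The stellate label was checked against its markers. Of 17 stellate markers checked, 14 were higher in all 5 HSC libraries than in any of the 50 other libraries, and Spon1 and Bambi were among the exceptions. Lrat, which esterifies retinol for storage, was at 295 and 538 FPKM in the normal libraries and at 324, 452 and 268 in the PH libraries, against at most 12.6 in any other library. The mean log2(FPKM + 1) over 40 stellate identity genes lay between 7.52 and 7.73 in all 5 libraries. The libraries of a group differed from one another: Pearson's r of log2(FPKM + 1) across the tested genes was 0.81 between the normal libraries, 0.95 between PH libraries 1 and 3, and 0.82 and 0.83 between PH library 2 and the other two, where genes are not independent replicates. PH library 2 listed 56.6% of symbols at 0, against 43.6% to 51.2% in the other 4, and the read depth of all of them is unknown.

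Markers of neighbouring cell types varied between the libraries. For 3 lists the mean was lower in each PH library than in both normal ones. For Kupffer cells normal library 1 and PH library 3 nearly met, at 2.80 and 2.79. The mean of 12 sinusoidal endothelial (LSEC) markers was 3.46 and 6.36 on the log2(FPKM + 1) scale in the normal libraries and 2.79, 1.08 and 2.35 after PH. The mean of 12 general endothelial markers was 4.25 and 5.70 against 2.93, 2.02 and 2.97, and that of 12 Kupffer cell markers was 2.80 and 6.69 against 2.50, 0.13 and 2.79. Normal library 2 was the highest for all 3 lists and PH library 2 the lowest. In the normal libraries sorted for those cells the same lists stood at 9.03 to 9.80, 8.66 to 8.79 and 10.73 to 10.85. The 12 hepatocyte markers reached at most 0.85 in HSC, with 8 of 12 listed at 0 in all 5 libraries, and the lymphocyte, neutrophil, biliary and mesothelial lists at most 1. Exact 0 values of genes high in hepatocytes may be failed estimates, so the hepatocyte list cannot show that hepatocyte RNA was absent. The 15 portal fibroblast markers lay between 1.38 and 2.37, and the 12 smooth muscle markers, many of which stellate cells share, between 4.87 and 5.64.

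**Figure D1:**
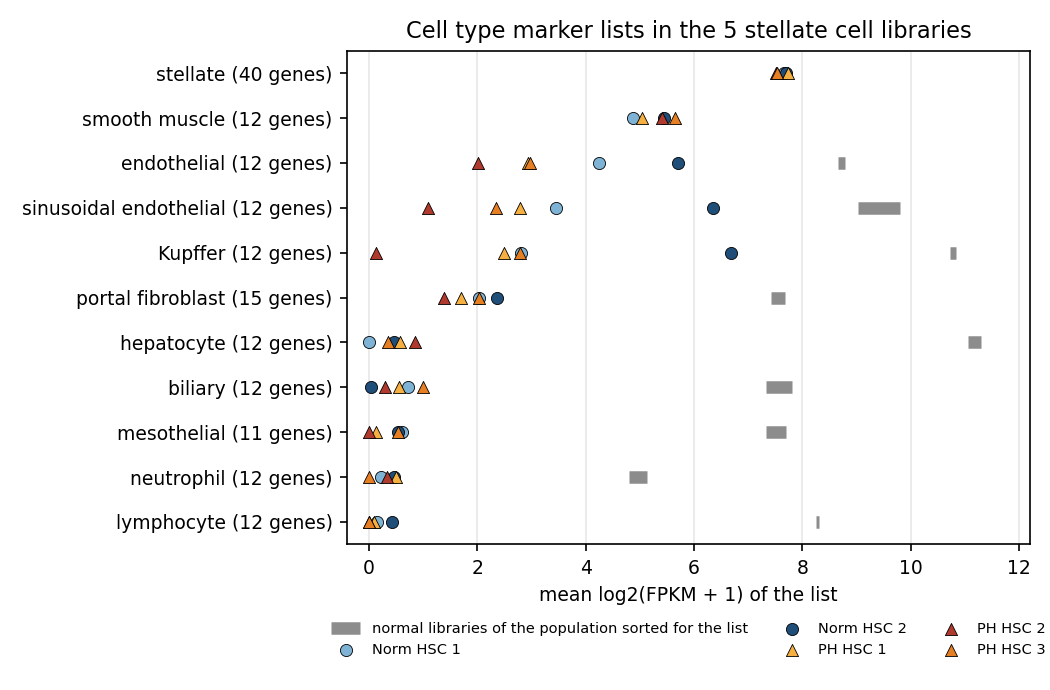
Mean log2(FPKM + 1) of each marker list (x axis) in the 2 normal (circles) and 3 PH (triangles) stellate cell libraries; grey bars span the normal libraries of the population sorted for that list. The stellate list stayed between 7.52 and 7.73, while the endothelial and Kupffer lists were highest in normal library 2 and lowest in PH library 2.

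Across all genes, 1 of 11729 passed the test of PH against normal HSC (limma on log2(FPKM + 1), Benjamini-Hochberg adjusted p under 0.05), which is 0.00853% of the genes, and 995 had an unadjusted p under 0.05. The median difference over all genes was 0.03 on the log2 scale. As a description with no test, a gene is called higher or lower below where the 2 normal and 3 PH libraries did not overlap and the difference was at least 1 on the log2(FPKM + 1) scale: 614 genes were higher (5.23%) and 660 lower (5.63%). These counts moved when 1 library was left out, to 1430 (12.6%) and 1085 (9.59%) without normal library 2 and to 921 (8.05%) and 1205 (10.5%) without normal library 1. Without 1 PH library they were 720 to 919 higher (6.30% to 8.03%) and 543 to 964 lower (4.69% to 8.42%). Fewer libraries meet the rule of no overlap more easily, so counts can rise for that reason alone, here and in the lists below. The counts of the lists below are to be read against these shares of all genes. A single limma fit of all 20 groups of the series, which takes the spread from all 55 libraries, called 1059 genes higher (9.03%) and 881 lower (7.51%), and 1129 of its 1940 calls were among the 1274 genes apart by the descriptive rule. The fit rested on which HSC libraries entered it: without PH library 2 it called 1241 genes and without PH library 1 it called 2587.

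Spon1 was the gene that rose. It encodes F-spondin, a secreted matrix protein, and its transcript lies on the plus strand of chromosome 7 from 120909512 to 121186889 (build mm9). Spon1 stood at 9.57 and 9.49 FPKM in the normal libraries and at 118, 172 and 107 in the PH libraries, 13.9-fold higher in the mean. The groups did not overlap and the lowest PH library was above every library of the other 9 populations, the highest of which was a PH endothelial library at 25.8 FPKM. The difference was 3.63 ± 0.32 (SE) on the log2(FPKM + 1) scale, with an adjusted p of 0.0498 in limma; without any 1 of the 5 libraries the adjusted p lay between 0.0597 and 0.249, with the difference between 3.43 and 3.77. In normal liver Thy1 cells also held Spon1, at 12.1 ± 0.38 FPKM (SD, n = 2), beside HSC at 9.53 ± 0.06 (SD, n = 2). Endothelial cells held more Spon1 after PH too, at 21.2 ± 4.16 FPKM (SD, n = 3) against 6.65 ± 6.08 (SD, n = 2) in normal liver. The mean of Thy1 cells after PH was 11.2 ± 7.42 FPKM (SD, n = 2).

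Several other genes under 10 FPKM in both hepatocyte groups had small p-values without passing the test. Dusp4, a phosphatase that acts on MAP kinases, was at 2.25 and 2.65 FPKM in the normal libraries and at 32.9, 38.5 and 35.4 after PH, with a difference of 3.41 ± 0.35 (SE) and an adjusted p of 0.0766 in limma. Spry4, an inhibitor of receptor tyrosine kinase signalling, was at 10.6 and 12.2 against 46.9, 78.0 and 52.1. Neither gene's groups overlapped. Gpx3, a secreted glutathione peroxidase, was at 110.0 and 23.7 FPKM in the normal libraries and at 1256, 1848 and 892 after PH. Alpl, the tissue-nonspecific alkaline phosphatase, was at 31.7 and 23.3 against 199, 654 and 409. Tmem173, which encodes the cytosolic DNA-sensing adaptor STING, was at 21.8 and 19.6 against 92.6, 72.7 and 105. All 3 genes were higher in each PH library than in both normal libraries, Gpx3 by 4.61 ± 0.61 (SE) and Alpl by 3.74 ± 0.48 on the log2 scale, and their adjusted p-values in limma were 0.124 (Gpx3 and Alpl) and 0.146 (Tmem173).

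Further genes apart by the same rule were Hrct1 (3.66 on the log2 scale), Gfpt2, an enzyme of hexosamine synthesis (2.43), Ankrd55 (2.22) and Eef2kmt, a methyltransferase of elongation factor 2 (2.12). Rin1, a Ras effector, was at 0.11 and 0 FPKM in the normal libraries and at 6.21, 16.3 and 14.9 after PH. Adamtsl2, a secreted microfibril-associated protein and one of the stellate identity genes, was at 63.3 and 55.2 against 198, 299 and 158. The PH libraries of Adamtsl2 all exceeded both normal ones, by 1.82 ± 0.33 (SE) on the log2 scale, with an adjusted p of 0.259 in limma.

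**Figure D2:**
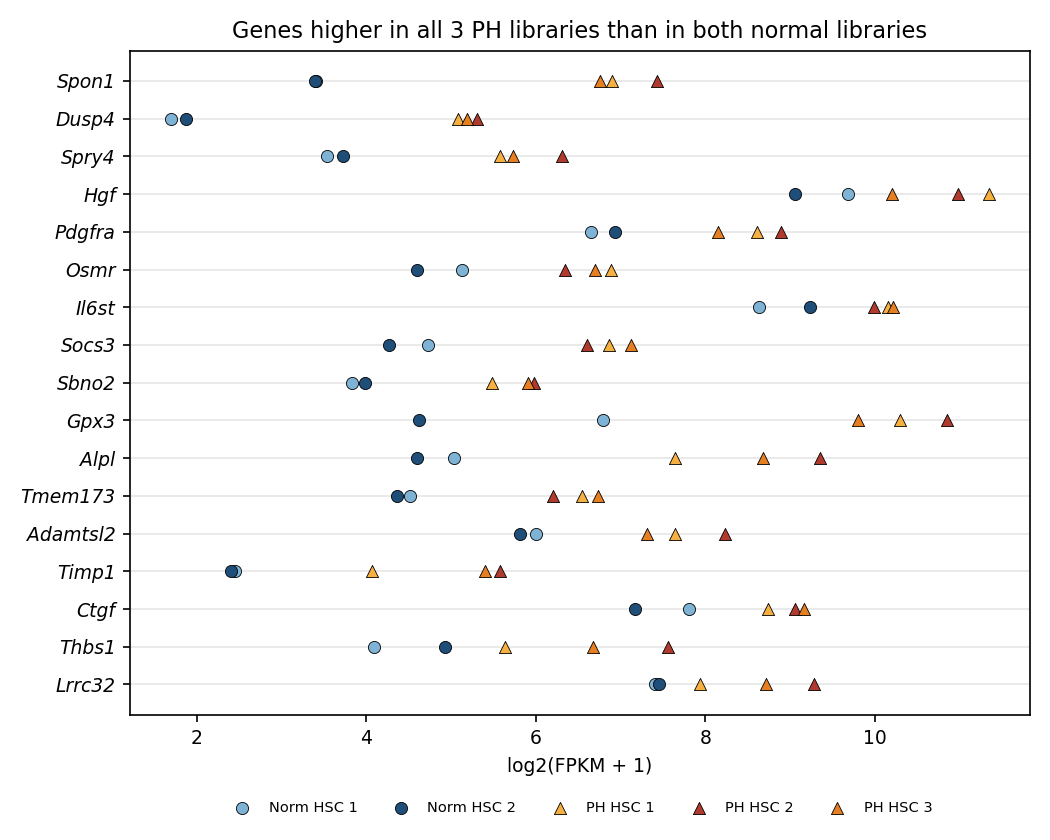
Levels as log2(FPKM + 1) (x axis) of 17 genes in each normal (circles) and PH (triangles) library. In every row the 3 PH libraries lie to the right of both normal libraries, and of these genes Spon1, with a difference of 3.63, passed the test in limma.

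Hgf was among the secreted growth factors called higher. Normal libraries held 816 and 532 FPKM of Hgf and PH libraries held 2594, 2016 and 1171 after PH, 2.86-fold higher in the mean. The groups did not overlap, PH library 3 was the lowest of its group, and the difference was 1.47 ± 0.39 (SE) on the log2 scale with an adjusted p of 0.415 in limma and 0.0356 in the single fit of all groups. Every other population held less Hgf, with 59.3 ± 17.0 FPKM (SD, n = 2) in PH blood cells as the highest group mean. A higher mean after PH was not particular to HSC. Normal and PH means were 18.6 and 59.3 FPKM in blood cells and 4.92 and 26.3 in Thy1 cells. They went the other way in Kupffer cells (36.7 and 17.1) and endothelial cells (34.8 and 23.6). Adm, which encodes the vasodilator adrenomedullin, was at 60.6 and 130 against 177, 285 and 221, and Tgfa, an EGF receptor ligand, at 1.85 and 2.32 against 3.87, 18.0 and 3.78. Of 30 growth factor genes tested, 3 were called higher (10%: Hgf, Adm and Tgfa) and 5 lower (16.7%), against 5.23% and 5.63% of all genes. The median difference of the list was -0.29 against 0.03 over all genes. Leaving out 1 library in turn gave 2 to 6 higher, the most without normal library 2, and 5 to 8 lower, the most without either normal library.

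The growth factors called lower were Wnt4, Gas6, Angpt2, Mdk and Kitl. Wnt4 was at 44.4 and 39.4 FPKM in the normal libraries and at 12.5, 15.2 and 24.9 after PH, so that each PH library was below both normal ones. Gas6, a ligand of the Axl receptor, was at 5.34 and 15.5 against 1.53, 0.35 and 1.65, and Angpt2, an antagonist of the endothelial receptor Tek, at 6.48 and 5.58 against 1.34, 1.13 and 1.60. Other abundant ligands of stellate cells stayed within 1 on the log2 scale. Gdf2, which encodes BMP9, was at 789 and 838 FPKM in the normal libraries and at 1225, 1325 and 1187 after PH, and Bmp10 at 242 and 222 against 427, 446 and 421. Both BMP genes were higher in each PH library, by 0.61 ± 0.24 and 0.89 ± 0.24 (SE). Rspo3, a Wnt agonist, was at 264 and 244 against 398, 305 and 332, and the chemokine Cxcl12 was lower, at 1985 and 1930 against 1486, 745 and 1034.

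Receptors of the interleukin-6 family were among the receptors higher after PH. Osmr, the oncostatin M receptor, was at 34 and 23.1 FPKM in the normal libraries and at 117, 80.3 and 103 after PH. Il6st, which encodes gp130, the signalling chain shared by that family, was at 397 and 602 against 1134, 1010 and 1188. Neither gene's groups overlapped, and the differences were 1.78 ± 0.32 and 1.18 ± 0.28 (SE) on the log2 scale, with adjusted p-values of 0.231 and 0.398 in limma and 1.44e-05 and 0.0178 in the single fit of all groups. The third receptor of the family measured at length, Lifr, overlapped between the groups, with 86.4 and 120 FPKM against 225, 120 and 203. Pdgfra, a receptor for platelet-derived growth factor, was at 99.4 and 121 against 388, 472 and 283, while its paralogue Pdgfrb was at 261 and 228 against 173, 247 and 359. Pdgfra was thus apart by 1.76 ± 0.30 (SE), with an adjusted p of 0.222 in limma, and Pdgfrb overlapped, with a difference of 0.03 ± 0.35. Normal hepatocytes held 18 FPKM of Il6st and 135 of Lifr. S1pr3, a sphingosine-1-phosphate receptor, was at 109 and 98.5 against 176, 228 and 245.

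Of 52 receptor genes tested, 4 were called higher (7.69%: Pdgfra, Osmr, Il6st and S1pr3) and 10 lower (19.2%), with a median difference of 0.01. Over all genes the shares were 5.23% and 5.63%. Leaving out 1 library gave 3 to 6 higher, the most without normal library 2, and 8 to 11 lower. Pth1r, the receptor of parathyroid hormone, was at 562 and 453 FPKM in the normal libraries and at 169, 57.1 and 229 after PH. Ngfr, the p75 neurotrophin receptor and a classical stellate marker, was at 342 and 278 against 127, 66.1 and 155. Both genes were lowest in PH library 2 and neither overlapped, with differences of -1.94 ± 0.55 and -1.49 ± 0.39 (SE), and adjusted p-values of 0.450 and 0.415 in limma. The others called lower were Flt1, Kdr, Nrp1, Nrp2, S1pr1, Npr1, Tlr2 and Itga8. Kdr, the main VEGF receptor of endothelium, was at 9.01 and 104 against 3.29, 0.08 and 3.02, its co-receptor Nrp1 at 73.4 and 128 against 48.4, 20.1 and 39.9, and Npr1, a natriuretic peptide receptor, at 9.55 and 26.4 against 2.61, 0 and 3.52. These 3 genes were highest in the normal LSEC libraries (hepatocytes held 14.5 FPKM of Nrp1), and the endothelial marker lists given above were lower in the same libraries; their part in the result was not tested.

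Socs3 and Sbno2, known as targets of gp130 signalling through STAT3, were both higher after PH, and were chosen for description with their values known. Socs3, the feedback inhibitor of gp130, was at 25.4 and 18.3 FPKM in the normal libraries and at 115, 96.5 and 138 after PH. Sbno2, a transcriptional co-regulator, was at 13.2 and 14.8 against 43.7, 62.0 and 58.8. Neither gene's groups overlapped, with differences of 2.37 ± 0.31 and 1.88 ± 0.31 (SE) and adjusted p-values of 0.124 and 0.208 in limma; normal hepatocytes held 14.4 FPKM of Socs3. The 250 bases before the RefSeq starts of Socs3 and Sbno2 and 1 start of Maff (build GRCm38.p6, chr11:117969367-117969616 on the minus strand, chr10:80102703-80102952 on the minus strand and chr15:79347270-79347519 on the plus strand) are printed 5′ to 3′ because these genes were apart and hold one of the motifs searched. The capitals mark TTCNNNGAA, the STAT motif, in Socs3 (154 bases before the start) and in Sbno2 (26 bases before the first of its 3 listed starts), and TGACGTCA, the cyclic AMP response element, in Maff (29 bases before 1 of its 3 starts).
Socs3: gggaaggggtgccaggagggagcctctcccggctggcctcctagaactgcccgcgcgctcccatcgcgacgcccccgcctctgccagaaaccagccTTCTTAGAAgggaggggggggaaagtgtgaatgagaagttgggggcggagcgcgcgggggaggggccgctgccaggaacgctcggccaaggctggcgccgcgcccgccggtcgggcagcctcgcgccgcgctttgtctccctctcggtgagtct
Sbno2: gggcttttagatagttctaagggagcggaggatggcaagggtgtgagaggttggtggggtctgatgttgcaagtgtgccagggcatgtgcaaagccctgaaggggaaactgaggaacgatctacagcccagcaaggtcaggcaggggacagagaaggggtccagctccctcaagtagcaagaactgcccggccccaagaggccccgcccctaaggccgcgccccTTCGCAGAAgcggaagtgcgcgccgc
Maff: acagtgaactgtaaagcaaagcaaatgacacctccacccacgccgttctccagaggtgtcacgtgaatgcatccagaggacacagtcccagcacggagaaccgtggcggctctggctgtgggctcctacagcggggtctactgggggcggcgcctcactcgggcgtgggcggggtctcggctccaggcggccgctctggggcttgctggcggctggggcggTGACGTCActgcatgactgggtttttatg
On both strands TTCNNNGAA was found before 7.18% of 27025 RefSeq starts, 1 per gene, and before 6.17% of those of the 8965 tested genes with an entry, 7.89% of those of the 456 called higher and 5.91% of those of the 474 called lower. TGACGTCA was found before 1.62% of all starts, 2.91% of those of tested genes, 3.29% of those called higher and 2.74% of those called lower. TGANTCA, the AP-1 motif, was found before 6.87%, 3.92%, 3.95% and 4.22% in the same order, so for all 3 motifs the genes called higher or lower lay near the tested genes. Other genes apart in either direction also held TTCNNNGAA, such as Frzb (higher) and Colec11 (lower), while Osmr and Il6st held none of the 3 motifs. The 3 motifs were searched separately, and a match is a description of the letters only.

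Immediate early genes, which encode the transcription factors and feedback regulators that respond first to a stimulus, were higher after PH as a list. Of 35 tested, 15 were called higher (42.9%) and 0 lower, against 5.23% and 5.63% of all genes, and the median difference was 1.03 on the log2 scale against 0.03. With limma 0 of the 35 passed in the fit of the HSC libraries, and the single fit of all groups called 9 higher and 0 lower. Leaving out each library in turn gave 13 to 18 genes higher and 0 lower. Of the 18 listed genes under 10 FPKM in both hepatocyte groups, 8 were called higher.

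Fosl2, an AP-1 subunit, was at 4.71 and 14.1 FPKM in the normal libraries and at 29.2, 38.8 and 37.2 after PH. Ier3, a survival-associated early gene, was at 36.6 and 8.12 against 84.9, 102 and 121, and Maff, a small MAF transcription factor, at 0 and 2.53 against 15.4, 61.8 and 18.6. None of these 3 genes overlapped between the groups. Egr1 was at 51.1 and 16.6 against 75.5, 119 and 393, and Junb at 128 and 69.1 against 199, 172 and 293, also without overlap. The best known members, Fos and Jun, overlapped: Fos was at 112 and 31.9 FPKM in the normal libraries and at 72.0, 152 and 182 after PH, and Jun at 40.2 and 57.8 against 39.2, 113 and 96.2. For Egr1, Junb, Fos and Jun the normal hepatocyte means were 83.1, 92.6, 46.3 and 84.8 FPKM, and for Egr1 the normal biliary populations cBEC and BEC held 2035 and 2022 FPKM.

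**Figure D3:**
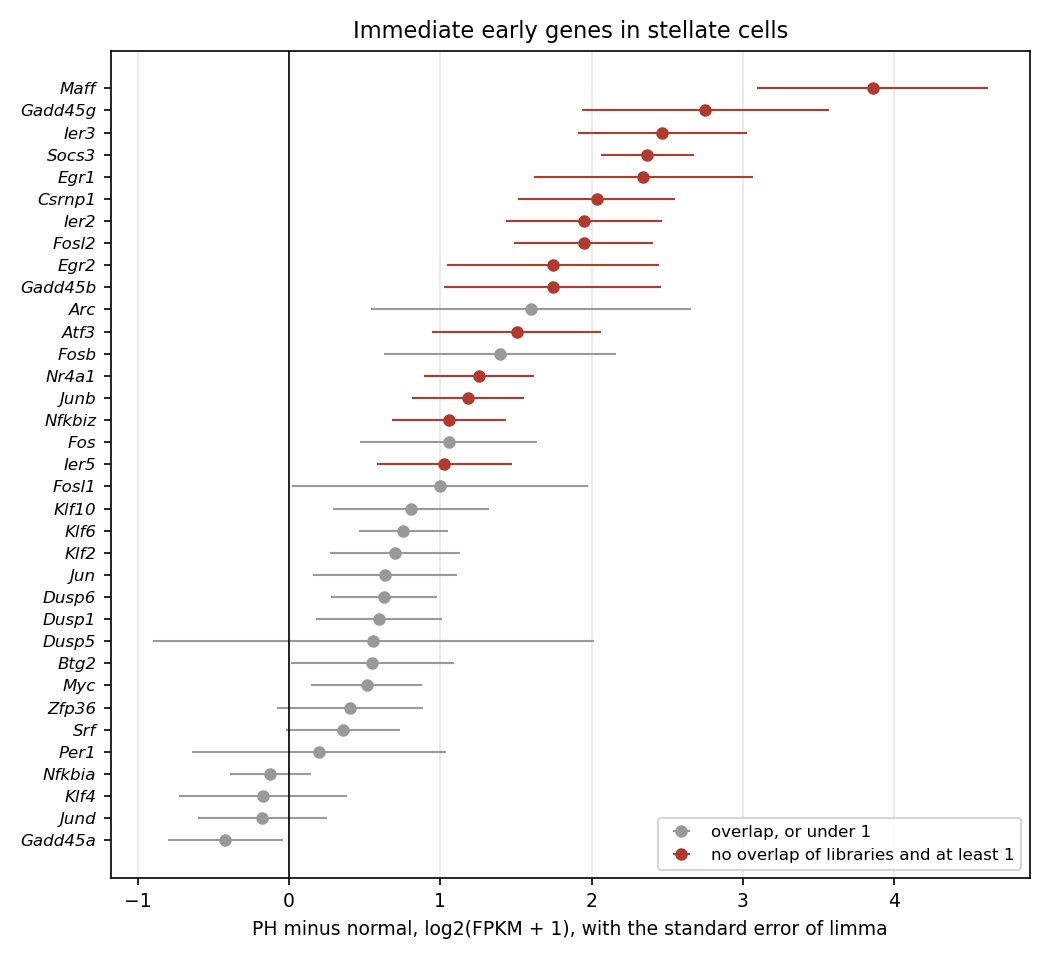
Difference PH minus normal on the log2(FPKM + 1) scale (x axis), with limma's standard error, for the 35 immediate early genes tested. The 15 genes without overlap and at least 1 apart (red) all lie above 0, led by Maff at 3.86; grey genes overlapped or differed by less than 1.

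Among genes of stellate activation, several secreted regulators were higher in every PH library, while the main fibrillar collagens overlapped between the groups. Of 37 activation genes tested, 7 were called higher (18.9%) and 1 lower (2.70%, Tnc), against 5.23% and 5.63% of all genes. The median difference of the list was 0.30. Timp1, an inhibitor of matrix metalloproteinases, was at 4.47 and 4.28 FPKM in the normal libraries and at 15.8, 46.7 and 41.4 after PH. Ctgf, a matricellular growth factor, was at 222 and 142 against 427, 533 and 572. The groups did not overlap for either gene, and PH library 1 was the lowest PH library in both; the differences were 2.59 ± 0.51 and 1.51 ± 0.30 (SE), with an adjusted p of 0.304 in limma for each. Thbs1, an activator of latent TGF-beta, was at 16.0 and 29.5 against 48.5, 188 and 101. The counts moved with the libraries: 14 genes were called higher without normal library 2, when 1430 of all 11311 genes were, and 10 without PH library 1, while 6 were called lower without normal library 1.

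Acta2, the smooth muscle actin of myofibroblasts, was at 6.66 and 58.7 FPKM in the normal libraries and at 26.8, 131 and 111 after PH. Col1a1, the main scar collagen chain, was at 16.1 and 93.9 against 36.2, 96.3 and 109, Col1a2 at 299 and 437 against 187, 286 and 347, and Col3a1 at 396 and 1186 against 141, 422 and 377. All 4 genes overlapped between the groups, and on the log2 scale the 2 normal libraries differed from one another more than the group means did for all 4. Their differences were 1.8 ± 0.95, 0.87 ± 0.75, -0.45 ± 0.34 and -1.28 ± 0.60 (SE), and without normal library 1 that of Col1a1 was -0.37. Of 18 collagen genes tested, 1 was called higher, Col12a1, at 0 and 0.14 against 0.25, 3.43 and 1.84 FPKM, and 2 lower, Col5a3 and Col25a1, with a median difference of -0.36. These were 5.56% and 11.1% of the list, against 5.23% and 5.63% of all genes. Leaving out 1 library gave 0 to 6 higher and 2 to 4 lower, and without normal library 2 the median was 0.28. Col4a1, a basement membrane chain, was at 344 and 805 against 471, 1667 and 1625.

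Among 44 genes of matrix remodelling, 6 were called higher (13.6%) and 3 lower (6.82%), against 5.23% and 5.63% of all genes, with a median difference of 0.17. Without normal library 2 the counts were 14 and 4, and without PH library 1 they were 11 and 3. Beside Timp1 and Adamtsl2 the higher genes included Plod1, a collagen lysyl hydroxylase, at 47.6 and 97.6 FPKM in the normal libraries and 141, 152 and 156 after PH, and the aggrecanase family member Adamts15, at 12.6 and 18.8 against 39.0, 163 and 39.6. Normal hepatocytes held 16.7 FPKM of Plod1. Adamts5, another aggrecanase, was lower, at 36.3 and 36.6 against 14.4, 15.8 and 19.6. The PH and normal libraries of Adamts5 agreed closely within each group, and the difference was -1.10 ± 0.32 (SE), with an adjusted p of 0.454 in limma.

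In the TGF-beta and BMP pathway, 7 of 48 tested genes were called higher (14.6%) and 1 lower (2.08%, Acvrl1), against 5.23% and 5.63% of all genes. The median difference of the list was 0.27. Leaving out 1 library gave 4 (without PH library 2) to 10 (without normal library 2) higher and 1 to 3 lower. Tgfb1 itself overlapped, at 39.4 and 55.4 FPKM in the normal libraries and 49.5, 81.5 and 54.6 after PH. Its receptor Tgfbr1 was at 15.1 and 15.2 against 33.1, 46.3 and 25.1, and Lrrc32, which tethers latent TGF-beta at the cell surface, at 168 and 174 against 245, 619 and 417. The normal libraries of Tgfbr1 and Lrrc32 were close together and every PH library lay above them. Bmper, a secreted BMP modulator, was at 2.48 and 0.93 against 7.10, 24.8 and 25.3, Gdf10 at 224 and 199 against 332, 582 and 646, and the BMP target Id1 at 28.3 and 32.9 against 50.8, 88.3 and 65.4. Bmper differed by 2.76 ± 0.66 (SE) and the other 4 by 1.10 to 1.24, and none passed in limma, where the smallest adjusted p of the 5 was 0.398.

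Some stellate identity genes were lower after PH and others, Lrat among them, differed little. Of 39 identity genes tested, 3 were called higher (7.69%: Spon1, Adamtsl2 and Hgf) and 8 lower (20.5%), against 5.23% and 5.63% of all genes. The median difference of the list was 0.02. Leaving out 1 library gave 3 to 5 higher and 5 (without PH library 2) to 10 (without PH library 1) lower. Lrat, Reln, Ecm1, Cygb and Dcn were apart by less than 1 on the log2 scale, and Reln, a secreted glycoprotein, was at 536 and 848 FPKM in the normal libraries and at 557, 615 and 494 after PH. Colec11 and Colec10 encode collectins, lectins of innate immunity: Colec11 was at 3107 and 2354 against 1772, 1043 and 1047, and Colec10 at 554 and 890 against 437, 193 and 219. Angptl6 was at 517 and 441 against 236, 139 and 121, and Ntm, a neural adhesion molecule, at 67.6 and 36.1 against 18.7, 11.5 and 10.8. Each of these genes was below both normal libraries in all 3 PH libraries. The others called lower were Ngfr, Pth1r, Gfap (8.23 and 12.1 against 5.06, 1.70 and 4.46) and Nr1h4, the bile acid receptor FXR, which normal hepatocytes also held at 60.8 FPKM. None of the 8 passed in limma, where their smallest adjusted p was 0.367.

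Of the markers used to check the label, Colec11, Ngfr and Pth1r were thus called lower. Tcf21, a transcription factor of stellate cells, was just under the limit, at 623 and 581 FPKM against 367, 251 and 295, and Lhx2, another, was at 87.2 and 179 against 75.9, 69.3 and 65.8. Outside the list, Mest, an imprinted gene, was at 246 and 164 FPKM in the normal libraries and at 53.4, 30.2 and 87.1 after PH, and Islr at 120.4 and 110 against 51.4, 41.3 and 54.8. Gpat2 was at 123 and 117 against 44.8, 22.5 and 45.5. Every PH library was below both normal ones for these 5 genes. Mgp, matrix Gla protein, was at 14.9 and 11.1 against 0.36, 0 and 0, and it was far higher in normal Thy1 cells, at 530.4 FPKM.

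Several genes of the Notch pathway were lower. Heyl, a transcription factor induced by Notch, was at 113 and 76.3 FPKM in the normal libraries and at 9.34, 14 and 23.1 after PH, 0.164 times the normal mean. The groups did not overlap, and the difference was -2.60 ± 0.42 (SE), with an adjusted p of 0.208 in limma and 1.84e-07 in the single fit of all groups. Normal HSC held the most Heyl of the 10 normal populations, the next being the cBEC group at 2.95 FPKM. Notch3, the receptor of mural cells, was at 43.9 and 31.7 against 9.07, 16.3 and 26.4, and Hey2 at 17.5 and 12.6 against 6.93, 0 and 7.50. Nrarp, a feedback inhibitor of the pathway, was at 1.02 and 6.39 in the normal libraries and listed at 0 in all 3 PH libraries. Notch1 and the ligand Jag1 overlapped, and the ligand Dll4, highest in normal endothelial cells, was at 26.3 and 17.4 against 6.27, 0 and 14.7. Over the 35 Wnt, Notch and hedgehog genes tested, 2 were called higher (5.71%) and 7 lower (20%), against 5.23% and 5.63% of all genes. The higher ones were the secreted Wnt antagonist Frzb, at 91.8 and 112 against 206, 330 and 271, and Dkk3, at 7.81 and 7.66 against 27.3, 72.0 and 23.4. None of the PH libraries of either reached down to a normal one. The median difference of the list was -0.29, and leaving out 1 library gave 2 to 3 higher and 5 to 7 lower.

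**Figure D4:**
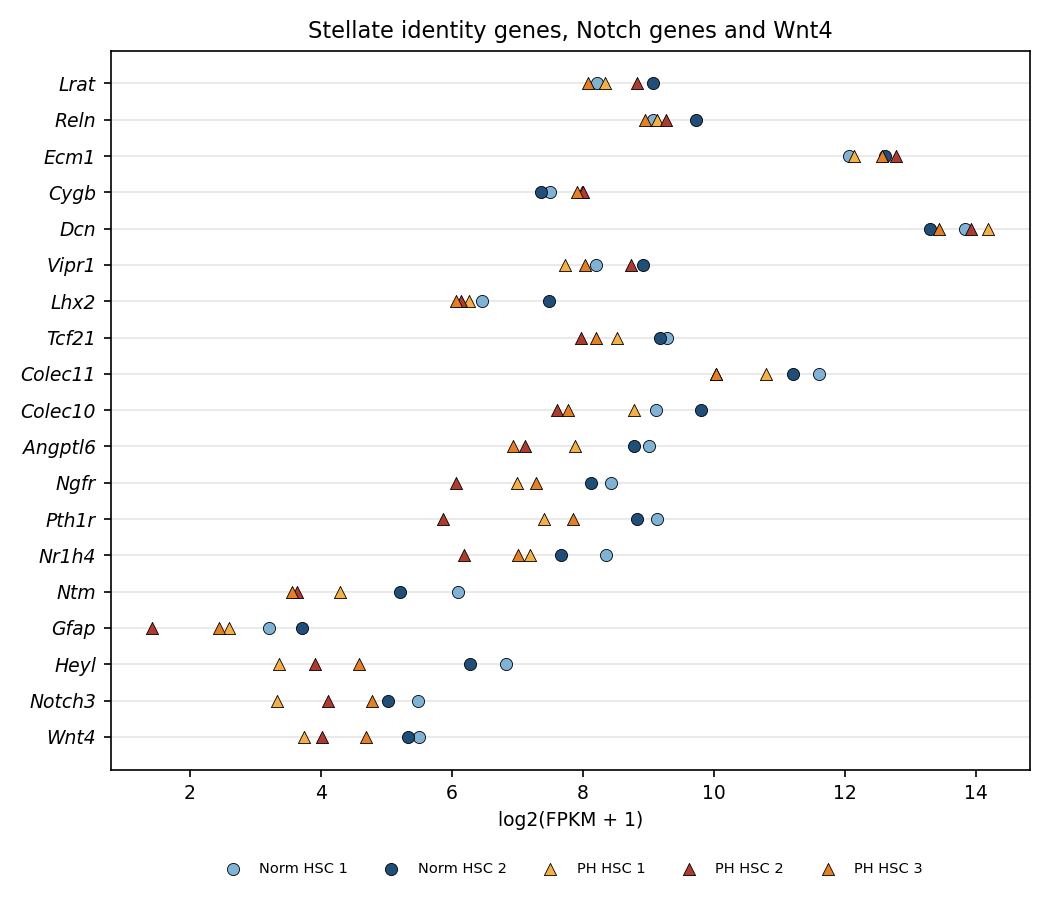
Levels as log2(FPKM + 1) (x axis) of stellate identity genes, Notch genes and Wnt4 in each normal (circles) and PH (triangles) library. Lrat, Reln, Ecm1, Cygb and Dcn are within 1 between the groups, whereas from Colec11 to Wnt4 all PH libraries lie to the left of both normal libraries.

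Retinoid and lipid storage genes did not move as a list: of 22 tested, 1 was called higher (4.55%) and 2 lower (9.09%), and the median difference was -0.01. Over all genes the shares were 5.23% and 5.63%. Leaving out 1 library gave 0 (without PH library 2) to 4 (without normal library 1) higher and 2 to 4 lower. The higher gene was Aldh1a1, which oxidizes retinal, at 112 and 124 FPKM in the normal libraries and at 243, 551 and 173 after PH, with 572 FPKM in normal hepatocytes. The lower genes were Cyp26b1, a retinoic acid hydroxylase, and Cd36, a fatty acid carrier. Cd36 was at 19.0 and 69.4 against 4.26, 0 and 2.38 and Cyp26b1 at 1.64 and 13.4 against 0.94, 0.54 and 0.77, and the highest normal means of these genes were in endothelial cells (1016 FPKM for Cd36, against 10.8 in hepatocytes) and in LSEC (293 for Cyp26b1).

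Cell cycle genes did not stand higher in the PH libraries. Mki67, a marker of dividing cells, stood at 0 and 19.5 FPKM in the normal libraries and at 0.30, 2.80 and 1.57 after PH. The normal libraries thus bracketed the PH ones, with normal library 2, the one with the highest Kupffer and endothelial markers, above all. Of 28 mitosis genes tested, 0 were called higher and 4 lower (14.3%: Racgap1, Nek2, Anln and Bub1b), against 5.23% and 5.63% of all genes. The median difference of the list was -0.75. Without normal library 2 the counts were 6 higher and 2 lower of 19 and the median was 0.67, and without normal library 1 they were 0 and 21 of 28 and the median was -2.25. Of 41 genes of DNA replication, 2 were called higher (4.88%: Mcm5 and Rfc4) and 1 lower (2.44%: Pola1). Without normal library 2 there were 9 higher and without normal library 1 there were 8 lower. Ccnd1, the G1 cyclin that rises in hepatocytes after PH, was at 8.10 and 34.7 against 4.16, 4.98 and 7.78 (hepatocytes held 10.9 FPKM). It was the 1 gene of 20 G1 cyclins and CDK inhibitors called lower (5%), where 0 were higher. Leaving out 1 library gave 0 to 2 higher and 0 to 3 lower.

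With all 5 libraries, inflammatory genes were called lower or not called. Of 21 chemokine and cytokine genes tested, 0 were called higher and 5 lower (23.8%), against 5.23% and 5.63% of all genes. The median difference of the list was -0.83. Leaving out 1 library gave 0 to 2 higher, the most without normal library 1, and 4 to 8 lower. The fewest lower were without normal library 2, where the median was -0.43. Cxcl10, an interferon-induced chemokine, was at 34.9 and 72.1 FPKM in the normal libraries and at 3.42, 0 and 7.92 after PH, Cxcl9 at 3.07 and 6.19 against 0.16, 0 and 0.29, and the eosinophil attractant Ccl11 at 8.43 and 3.33 against 0.52, 0 and 0. All PH values of these 3 genes were below both normal ones, and Cxcl10 differed by -3.91 ± 0.88 (SE), with an adjusted p of 0.382 in limma. Ccl2, the monocyte attractant, overlapped, at 12.9 and 135 against 147, 118 and 131. Of 40 interferon-induced genes, 0 were called higher and 5 lower (12.5%), with a median difference of -0.52. Leaving out normal library 2 or PH library 2 gave 3 lower (with 1 higher in the latter). Leaving out normal library 1 gave 12 lower and leaving out PH library 3 gave 16. Of 6 genes of antigen presentation on MHC class II, 0 were called higher and 5 lower (83.3%). Cd74, a gene of that list, was at 12.3 and 146 against 6.97, 1.72 and 0. Cd74 and Cxcl10 were highest in normal Kupffer cells, whose markers were lower in the PH libraries too; their part in the result was not tested.

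Among the genes lower by the largest amounts were endothelial and Kupffer genes. Clec4g, a sinusoidal lectin, was at 100.1 and 510.3 FPKM in the normal libraries and at 43.7, 0.34 and 25.4 after PH, and Dnase1l3 at 22.0 and 172 against 5.47, 0.10 and 4.61. C1qa, a complement gene of macrophages, was at 18.9 and 153 against 6.57, 0 and 3.97. Normal library 2 held the most of each and PH library 2 the least. Among the 12 genes of each marker list, 8 LSEC (66.7%), 9 general endothelial (75%) and 8 Kupffer markers (66.7%) were called lower and 0 higher. Over all genes 5.63% were called lower and 5.23% higher. In bulk libraries fewer cells of a type and less RNA per cell cannot be told apart. Under 10 FPKM in both hepatocyte groups were 7482 genes, of which 370 were called higher (4.95%) and 557 lower (7.44%). Of those 557, 26.03% were highest in normal HSC, the largest share of any population, against 14.02% of all 7482. The shares highest in normal endothelial cells, LSEC and Kupffer cells were 11.3%, 11.5% and 12.7%, against 5.56%, 8.41% and 7.20%. The share highest in normal blood cells was 17.4%, against 28.3%. Endothelial cells, LSEC, Kupffer cells and blood cells together made up 52.96%, against 49.43%. The population in which a gene is highest is set in part by the normal HSC libraries compared here, so these shares are a description.

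Of 32 YAP target genes, 2 were called higher (6.25%), Ctgf and Ankrd1, and 1 lower (3.1%), Fjx1, against 5.23% and 5.63% of all genes. Ankrd1 was at 0.30 and 0.22 FPKM in the normal libraries and 4.63, 16.9 and 16.8 after PH. Leaving out 1 library gave 2 to 5 higher, the most without PH library 1, and 0 to 3 lower. Of 10 genes of the insulin-like growth factor axis, Irs2, an insulin receptor substrate, was called higher, at 0.27 and 1.23 against 3.72, 17.3 and 7.74, and Htra1, a secreted protease, lower, at 112 and 56.4 against 22.4, 36.5 and 15.2. Neither gene's groups overlapped, and leaving out 1 library gave 1 higher and 1 to 4 lower, the most without normal library 1. Of 39 guidance genes, 4 were called higher (Spon1, Slit3, and Epha2 and Plxnb2, at 11.6 and 52.4 FPKM in normal hepatocytes) and 8 lower, with a median difference of -0.11. These were 10.3% and 20.5% of the list, against 5.23% and 5.63% of all genes. Leaving out 1 library gave 2 to 9 higher and 3 to 9 lower, with the most higher and the fewest lower without normal library 2. Of the markers of other cells, 2 of 2 tested hepatocyte genes, 2 of 8 portal fibroblast genes and 0 of 10 smooth muscle genes were called higher. Called lower were 3 portal fibroblast genes, 1 smooth muscle gene (Notch3), 1 of 2 mesothelial genes and Ptprc. Ptprc, the 1 tested gene of the lymphocyte list, was at 1.13 and 17.9 FPKM in the normal libraries and at 0.24, 0 and 0.02 after PH. No other gene of that list met the filter. Of the neutrophil and biliary genes 0 of 2 and 0 of 1 were called. Without normal library 2, 4 of 10 smooth muscle genes were called higher, and without PH library 1, 3 of 10. The hepatocyte genes were Ass1, at 0 and 0 against 8.20, 22.1 and 1.08, and Cyp2e1, at 0 and 3.90 against 11, 4.83 and 7.68, with means of 985 and 2125 FPKM in normal hepatocytes.

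**Figure D5:**
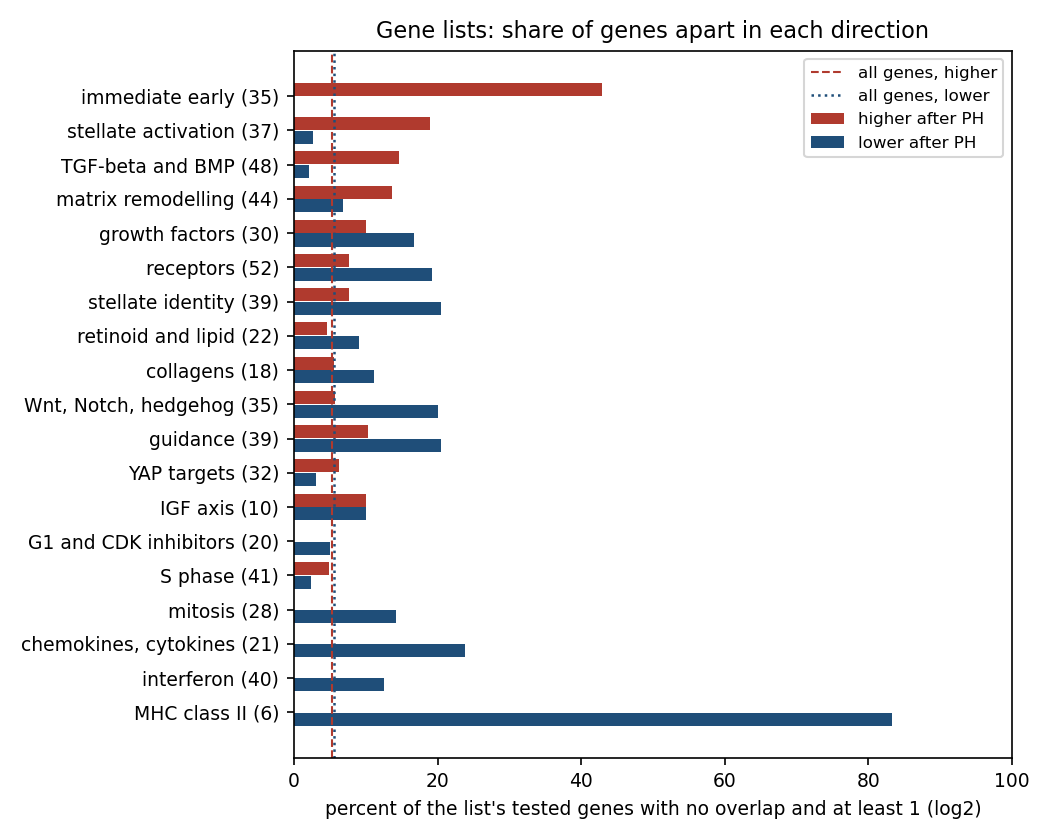
Percent of the tested genes of each list (number in brackets) called higher (red) or lower (blue) after PH; the dashed and dotted lines mark the 5.23% and 5.63% of all genes. The immediate early list reached 42.9% higher and 0 lower, and the MHC class II list, of 6 genes, 83.3% lower.

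Whether a difference in stellate cells departed from what the other sorted cells showed was tested by contrasting the PH minus normal difference of HSC with the mean of that in the other 9 populations, in the single limma fit of all 20 groups. The contrast passed for 990 genes in the higher direction (8.44%) and 679 in the lower (5.79%). Without 1 HSC library the contrast passed for 720 to 1185 higher and 364 to 1025 lower, with the fewest lower without PH library 2 and the most without PH library 1. The fit shares 1 estimate of spread, which assumes that HSC libraries vary like the others, and 1 cBEC library whose title says PH but whose treatment label says normal was kept under its title. Spon1 exceeded the other populations' mean response by 3.29 ± 0.39 (SE; adjusted p of 1.48e-07), Dusp4 by 3.15 ± 0.55, Gpx3 by 3.89, Alpl by 2.95 and Osmr by 1.64 ± 0.29 (adjusted p of 0.000156). Heyl was below it by 2.30 ± 0.33, and the adjusted p of Heyl was 6.96e-06. For Hgf, Pdgfra and Socs3 the contrasts of 1.32, 1.32 and 1.72 did not pass, with adjusted p-values of 0.0833, 0.155 and 0.212. Osmr was also higher in PH than in normal non-progenitor ducts (60.9 ± 0.59 against 20.8 ± 0.99 FPKM, SD, n = 2 each) and lower in Kupffer cells (0.99 ± 0.69, n = 3, against 16.6 ± 2.33, n = 2).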

How the data were processed

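Levels were deposited by the authors as FPKM in 1 table of all samples, whose 36141 rows are transcripts with RefSeq identifiers and loci. Its headers name neither the unit nor the counting tool, and the unit is taken from the name the authors gave the table. Per the submitters' processing notes, CASAVA 1.8.2, Bowtie 1.0.0 and build mm9 were used, and steps between alignment and FPKM are not given in the sources used here. Every column carried a sample title (0 were left over). Each of 24478 symbols was represented by its row of highest mean over the 55 libraries. Starts in the table count from 0, since 955 of 965 microRNA rows then match their hairpin lengths, and were converted. FPKM hold no depth, so no counting interval is given, and exact 0 values may be failed estimates: genes at 300 FPKM or more in hepatocytes were listed at 0 in 3.98% of normal and 3.80% of PH HSC values, against 0.915% and 2.16% for genes under 30.

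Genes with at least 1 FPKM in at least 2 of the 5 HSC libraries were log2(FPKM + 1)-transformed and tested in limma (version 3.58.1, under R 4.3.3), with moderated, trended and robust variances, two-sided, using the 2 normal and 3 PH libraries. A difference on this scale understates that of low genes. The response contrast used all 20 groups. The fit was tested on simulated data with 200 changed genes and noise independent between genes. The changed genes were drawn from those with a mean log2(FPKM + 1) above 4, so recovery of lower genes was not tested. It recovered 0 of them at a change of 1 on the log2 scale, 88 at 2 and 193 at 4. False calls numbered 0, 7 and 15 in the same order. The members, the 29 gene lists and the alternatives were chosen with earlier results of these data known, so lists are described by counts and medians without a test. The rule for named genes took those with an adjusted p under 0.05; among genes under 10 FPKM in both hepatocyte groups and apart by at least 1, leaving out predicted genes, pseudogenes and small RNAs, the 15 of smallest p and the 10 of largest difference in each direction; 15 fixed genes; up to 5 per list and direction; and 6 per direction for the response. This gave 155 genes, of which the text names a part, and 30 further genes, and Bambi, Notch1, Jag1, Flt1, Nrp2, S1pr1, Tlr2 and Itga8, which are named without values, were chosen after their values were seen. Alternatives were a pseudocount of 0.1, no filter, a filter of 5 FPKM, a single fit of all groups, quantile and upper-quartile scaling, array weights, a fit without the robust option, a replicate block, genes low in hepatocytes, the mean over a symbol's rows and leaving out each library. The restriction to genes higher in normal HSC than in endothelial, LSEC, Kupffer and blood cells, and leaving out libraries in the single fit, were added after seeing the data. Promoters are from RefSeq, and 456 of the 614 genes called higher had an entry. Figures used Python 3.11.15 and matplotlib 3.10.9. Some items are not reported here.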

Additional observations from a re-analysis of the deposited data

Results flagged for a closer look

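The response of HSC to PH differed from the mean response of the other 9 populations, by the contrast of the single limma fit of all groups, in the higher direction for 990 genes and in the lower direction for 679. The genes with the smallest p in the higher direction, among genes under 10 FPKM in both hepatocyte groups, were Spon1 (3.29 on the log2 scale), Ankrd55 (2.23), Rin1 (3.05), Nek5 (2.42), Zcchc10 (2.19) and Lrrc27 (3.05). In the lower direction they were Fam162b (-2.83), Ano5 (-2.10), Sycp1 (-1.82), Crygs (-3.05), Elfn1 (-1.81) and Zbtb8b (-1.94). Several of these are low genes: Nek5 was listed at 0 in both normal HSC libraries and at 2.09, 3.14 and 2.49 FPKM after PH, and Fam162b was at 8.33 and 4.53 FPKM in the normal libraries and listed at 0 in all 3 PH libraries, so their differences depend on the pseudocount. Crygs, a crystallin, was at 15 and 18.3 FPKM in the normal libraries and at 3.64, 0 and 0.76 after PH, and no other normal population held more than 0.32 FPKM of it on average.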

How the results depend on the processing

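The count of genes passing in the fit of the HSC libraries was 1, and it was 0 with a pseudocount of 0.1, 0 with no filter, 3 with quantile normalization (Spon1, Dusp4 and Mir703), 7 with array weights, 2 among genes low in hepatocytes and 1940 in the single fit of all groups; leaving out each library gave 0 to 3. In the single fit, leaving out a library gave 1524 and 2044 (normal libraries 1 and 2) and 2587, 1241 and 2191 (PH libraries 1, 2 and 3), and the restriction to genes higher in normal HSC than in endothelial, LSEC, Kupffer and blood cells gave 424, of which 106 were higher; that restriction uses the normal HSC libraries compared here and so favours lower calls. The replicate numbers showed no clear pairing of the libraries (correlations of deviations of 0.07 and 0.04). The deviations of 2 normal libraries mirror one another, so these correlations are not independent and cannot settle whether libraries were paired. With the replicate block 0 genes passed. The response contrast passed for 1669 genes and for 1124 to 2146 under its alternatives, 1585 of them with the replicate block. Of 3908 values of 185 named genes under the alternatives, 19 changed sign. Many could not change, since several alternatives leave the difference itself as it was. Genes named for no overlap also keep their sign when a library is left out. Leaving out 1 library gave a range from -0.66 to 0.20 for Lrat, -0.62 to 0.0445 for Reln and -3.14 to 1.22 for Mki67, each positive only without normal library 2. The ranges were -0.37 to 2.10 for Col1a1, -0.12 to 0.43 for Ecm1 and -0.0378 to 3.25 for Ccl2, each negative only without normal library 1. For Pdgfrb it was -0.24 to 0.29, negative without PH library 3 and without normal library 2 (-0.0715), and Pdgfrb was -0.23 with quantile normalization, -0.0159 with upper-quartile scaling and -0.24 with the replicate block. The single fit estimates the same group differences by construction, so leaving out a library gave the same signs there, which is no further check. The cause was not tested. Groups of 2 and 3 libraries and an unknown depth limit what can be told apart, and no level near 0 can be separated from a failed estimate.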
